A study of Mus musculus with 6 samples.

Results

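The Notch pathway passes signals between neighbouring cells. Ligands of the Delta and Jagged families on one cell bind Notch receptors on another, the receptor is cleaved, and its intracellular part joins the DNA-binding protein Rbpj to switch on repressors of the Hes and Hey families. In the embryonic pancreas the pathway is known for holding progenitors back from the endocrine fate, since Hes1 represses Neurog3, the transcription factor that starts endocrine differentiation. Described here are 9 genes of the pathway, chosen by name: the ligands Jag1 and Dll1, the receptors Notch1, Notch2 and Notch3, the glycosyltransferase Mfng (Manic fringe), which modifies the receptors, and the nuclear factors Hes1, Hey1 and Hes6. All 9 were among the 31028 symbols of the RNA matrix, and 7 of the 9 were among the 8269 genes of both ATAC matrices. Dll1 and Hey1 were not listed in the ATAC matrices and were not analysed there.

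The series compared mouse embryos of 2 genotypes on the C57BL/6 strain, labelled WT (Ptf1a+/+) and KO (Ptf1aenh-delta/enh-delta, homozygous for deletion of an enhancer of Ptf1a, a pancreatic transcription factor gene). Single-cell RNA was measured at embryonic day 10.5 (E10.5) in dissected tissue labelled as multipotent progenitor cells (MPCs), and chromatin accessibility (single-nucleus ATAC) at E10.5 and in the pancreas at E13.5. Each library was a pool, of 5 to 9 embryos at E10.5 and 6 at E13.5, and there was 1 library per genotype, stage and assay. No difference described here therefore has a replicate check and none was tested, and intervals cover counting error only, at the 95% level.

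The RNA libraries held 1104 barcodes and 4665222 UMIs (unique molecular identifiers, 1 per captured RNA molecule) in WT, and 815 barcodes and 4360076 UMIs in KO. A minimum of 1000 genes per cell left 451 WT and 369 KO cells, with 1 barcode sequence occurring in both. Clusters were made without the Notch pathway genes and named from marker lists. The progenitor class held 109 WT and 37 KO cells, the Neurog3-positive class 20 and 42, the hormone-stage class 52 and 97, the mesenchyme class 88 and 70, and the hepatobiliary class 15 and 36. The label of multipotent progenitor cells therefore covers a mixture. A cluster of 21 WT and 35 KO cells carried mesenchyme markers together with hormone markers, and another of 146 and 52 cells with few UMIs stayed unnamed. The KO label held in the targeted gene. Ptf1a had 108 UMIs in WT progenitors (74.2 CPM, that is UMIs per 1000000 UMIs of the class, interval 60.8 to 89.5). In KO progenitors it had 0 of 627253 UMIs, or up to 4.78 CPM if 3 counts are taken as the limit that 0 allows. Ptf1a also had 16 UMIs in the WT mesenchyme class (22.8 CPM), a cell type not known to express it, and the source of those UMIs was not tested. A Neurog3 UMI was found in 8 of 20 WT and 28 of 42 KO cells of the Neurog3-positive class, which also held 12190 and 13910 CPM of hormone-stage marker RNA, against 61010 and 50630 CPM in the hormone-stage class. In pooled sums fewer expressing cells and less RNA per cell cannot be told apart.

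Promoter windows (RefSeq, build GRCm38.p6, 250 bases before the transcript start) were listed for 6 of the 9 genes: Jag1, Dll1, Notch1, Notch2, Notch3 and Hes6. Of the others, the annotation of that build places Hes1 at chr16:30065357-30067796, Mfng at chr15:78755882-78773516 and Hey1 at chr3:8663359-8667038. The set below is shown because it contrasts the promoters of Hes6 and the ligand Dll1 with those of Jag1 and Notch1. Hes6 was highest in Neurog3-positive cells. In WT, Dll1, Jag1 and Notch1 all had their highest level in progenitors, each within counting error of the next class. The set therefore does not divide the genes by the class where they were highest. Capitals mark each CANNTG, the E-box letters recognised by basic helix-loop-helix factors such as Neurog3 and Ptf1a. For Hes6 and Dll1, which have 2 listed starts each, the window at the 5' end of the gene is printed. All 4 genes lie on the minus strand, and each sequence reads 5' to 3' along the gene.
Hes6, chr1:91414039-91414288: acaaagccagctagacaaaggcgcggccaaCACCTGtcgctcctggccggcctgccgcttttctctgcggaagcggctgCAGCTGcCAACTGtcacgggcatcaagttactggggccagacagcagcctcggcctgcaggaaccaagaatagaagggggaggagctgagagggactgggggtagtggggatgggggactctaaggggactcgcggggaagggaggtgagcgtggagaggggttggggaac
Dll1, chr17:15376933-15377182: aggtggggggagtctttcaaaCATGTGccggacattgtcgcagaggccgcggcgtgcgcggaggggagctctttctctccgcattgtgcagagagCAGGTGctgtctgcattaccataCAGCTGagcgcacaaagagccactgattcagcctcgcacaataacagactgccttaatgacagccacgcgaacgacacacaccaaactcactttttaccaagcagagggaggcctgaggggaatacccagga
Jag1, chr2:137116521-137116770: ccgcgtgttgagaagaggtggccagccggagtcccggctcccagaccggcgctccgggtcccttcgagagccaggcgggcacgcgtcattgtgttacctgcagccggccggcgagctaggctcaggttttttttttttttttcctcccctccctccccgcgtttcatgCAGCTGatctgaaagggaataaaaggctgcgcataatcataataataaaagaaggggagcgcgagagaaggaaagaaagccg
Notch1, chr2:26503823-26504072: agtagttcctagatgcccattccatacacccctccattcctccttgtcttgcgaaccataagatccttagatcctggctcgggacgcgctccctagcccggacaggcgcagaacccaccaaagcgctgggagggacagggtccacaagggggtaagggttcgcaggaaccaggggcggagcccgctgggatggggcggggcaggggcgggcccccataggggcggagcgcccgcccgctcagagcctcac

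The Hes6 window held 3 CANNTG matches, whose first bases lie 220, 171 and 164 bases before the start. The Dll1 window also held 3, at 229, 155 and 132 bases, the Jag1 window held 1, at 82 bases, and the Notch1 window held 0. At their other listed start Hes6 and Dll1 held 1 each, as many as Jag1, so the contrast holds for the printed starts only. Of all 32851 promoter windows of the same length, 66.2% held at least 1 CANNTG on either strand and 12.2% held at least 3. The Rbpj core TGGGAA, searched on both strands, had 0 matches in all 8 listed windows of the 6 genes, and 21.6% of all windows held it. A match or its absence describes these letters only, not a binding site.

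Hes1, the repressor that Notch signalling switches on, was high in progenitors and low in both endocrine classes. In WT its level was 163 CPM in progenitors (interval 143 to 186), 133 in hepatobiliary cells, 107 in mesenchyme, 23.1 in Neurog3-positive cells (interval 4.75 to 67.4) and 14.4 in hormone-stage cells (interval 6.90 to 26.5). In KO the levels were 126 CPM in progenitors, 146 in hepatobiliary cells, 106 in mesenchyme, 12.6 in Neurog3-positive cells and 15.2 in hormone-stage cells. The step lay between mesenchyme and the endocrine classes in both libraries, while progenitors, hepatobiliary cells and mesenchyme, taken as neighbours in each library's order of levels, did not differ beyond counting error. Mesenchyme and progenitors, which were not neighbours in WT, differed there, with a ratio of 0.653 (interval 0.497 to 0.850). Neurog3-positive cells held 3 Hes1 UMIs in WT and 4 in KO, a level 0.141 times that of WT progenitors (interval 0.029 to 0.417) and 0.1001 times that of KO progenitors (interval 0.027 to 0.266). A Hes1 UMI was seen in 79 of 109 WT progenitors and 2 of 20 WT Neurog3-positive cells, whose median depths were 12928 and 5788 UMIs. After every cell was thinned to 2000 UMIs, the share with a Hes1 UMI was 28.0% of 107 WT progenitors (interval 19.8% to 37.55%) against 10.5% of 19 Neurog3-positive cells (interval 1.30% to 33.1%). In KO it was 17.1% of 35 progenitors (interval 6.56% to 33.65%) against 0 of 41 (interval 0% to 8.60%). At equal depth the share was thus lower in Neurog3-positive cells in both libraries. The separate intervals overlapped, which does not decide whether the shares differ, and that difference was not tested.

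Hes6, a family member known to be switched on during endocrine differentiation and to act against Hes1, was highest in the Neurog3-positive class. In WT the level was 199.8 CPM in Neurog3-positive cells (interval 130.5 to 293), 62.5 in progenitors, 51.2 in mesenchyme, 39.4 in hepatobiliary cells and 37.4 in hormone-stage cells. In KO it was 334 CPM in Neurog3-positive cells (interval 273 to 404), 78.1 in progenitors, 51.4 in hormone-stage cells, 47.4 in mesenchyme and 43.9 in hepatobiliary cells. The Neurog3-positive class stood above every other class in both libraries, and below it neighbours in the order did not differ beyond counting error, except KO progenitors over KO hormone-stage cells (ratio 1.52, interval 1.02 to 2.25). The ratio of Neurog3-positive cells to progenitors was 3.20 in WT (interval 1.98 to 4.99) and 4.28 in KO (interval 3.02 to 6.13). The ratio of hormone-stage to Neurog3-positive cells was 0.187 in WT (interval 0.104 to 0.336) and 0.154 in KO (interval 0.110 to 0.213), and hormone-stage cells were also below progenitors, at 0.599 times in WT (interval 0.372 to 0.935) and 0.658 times in KO (interval 0.444 to 0.979).

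Mfng peaked in the same class and stayed above progenitors in hormone-stage cells. Its level in WT was 192 CPM in Neurog3-positive cells (25 UMIs, interval 124 to 284), 59.0 in hormone-stage cells (41 UMIs) and 6.87 in progenitors (10 UMIs). In KO it was 268 CPM (85 UMIs, interval 214 to 331), 69.9 (83 UMIs) and 9.57 (6 UMIs). Mesenchyme held 15.7 and 5.68 CPM, and hepatobiliary cells 4.92 and 3.66 CPM, in WT and KO. The Neurog3-positive class was 28.0-fold above progenitors in both libraries (interval 12.98 to 65.3 in WT and 12.3 to 78.4 in KO). Hormone-stage cells held 0.307 times the Neurog3-positive level in WT (interval 0.182 to 0.527) and 0.261 times in KO (interval 0.191 to 0.358), and 8.60 and 7.31 times the progenitor level. Mfng UMIs were found in 14 of 20 WT and 32 of 42 KO Neurog3-positive cells, against 7 of 109 and 4 of 37 progenitors, although the progenitors were the deeper cells.

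**Figure D1:**
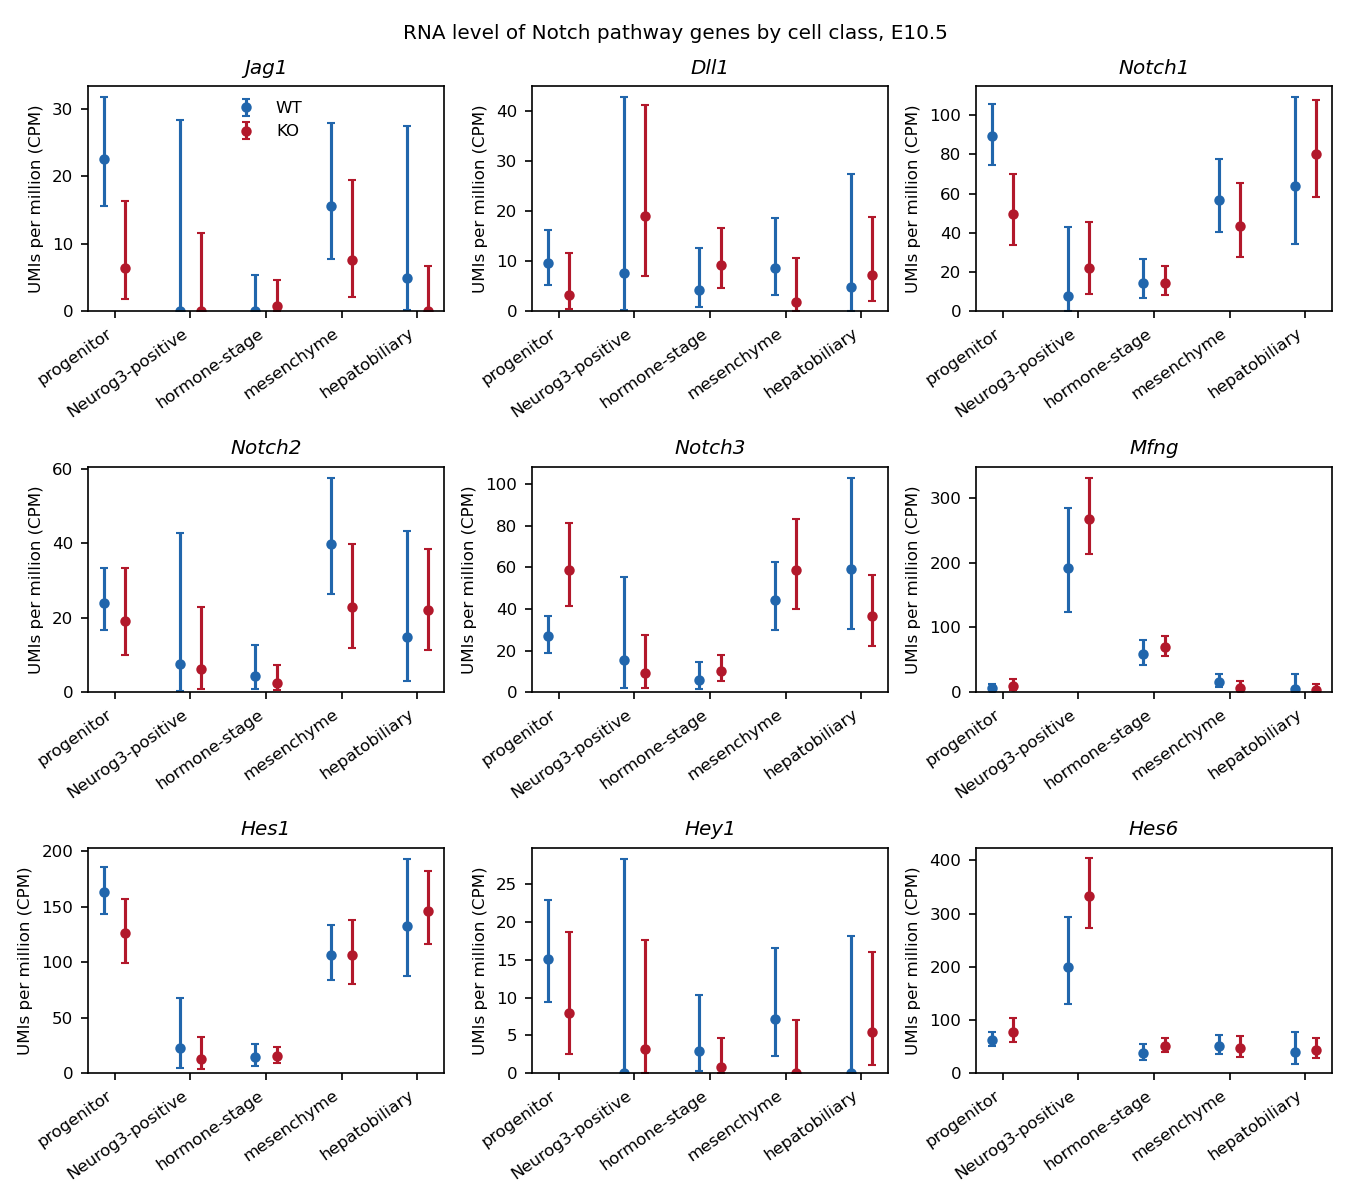
RNA level of the 9 genes at E10.5 in CPM (linear axes from 0, one scale per gene) for 5 cell classes, WT in blue and KO in red; points are class sums of 1 library and bars are exact 95% Poisson intervals of counting error. Hes1 is at 163 and 126 CPM in progenitors and between 12.6 and 23.1 in both endocrine classes, while Hes6 and Mfng are highest in Neurog3-positive cells.

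The receptors were carried mainly by progenitors, mesenchyme and hepatobiliary cells. Notch1 was at 89.3 CPM in WT progenitors (130 UMIs, interval 74.6 to 106), 64.0 in hepatobiliary cells, 56.9 in mesenchyme, 14.4 in hormone-stage cells and 7.68 in Neurog3-positive cells (1 UMI). In KO it was at 80.5 CPM in hepatobiliary cells, 49.4 in progenitors, 43.6 in mesenchyme, 22.1 in Neurog3-positive cells (7 UMIs) and 14.3 in hormone-stage cells. Among neighbours in these orders, mesenchyme stood above hormone-stage cells in WT (ratio 3.95, interval 1.94 to 8.86) and hepatobiliary cells above progenitors in KO (ratio 1.63, interval 1.01 to 2.67), and the other steps did not exceed counting error. Both endocrine classes were at the low end in both libraries, and the hormone-stage level was 0.161 times that of progenitors in WT (interval 0.076 to 0.306) and 0.290 times in KO (interval 0.150 to 0.540).

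Notch2 was at 24.0 CPM in progenitors, 39.8 in mesenchyme, 14.8 in hepatobiliary cells, 7.68 in Neurog3-positive cells and 4.32 in hormone-stage cells in WT. The KO levels were 19.1, 22.7, 21.9, 6.30 and 2.53 CPM in the same order of classes. No 2 neighbours in the order of Notch2 levels differed beyond counting error in either library, but hormone-stage cells were below progenitors in both, at 0.180 times in WT (interval 0.035 to 0.570) and 0.132 times in KO (interval 0.024 to 0.490).

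Notch3, the receptor best known from perivascular and mesenchymal cells, was at 59.1 CPM in hepatobiliary cells, 44.1 in mesenchyme, 26.8 in progenitors, 15.4 in Neurog3-positive cells (2 UMIs) and 5.76 in hormone-stage cells in WT. In KO it was at 59.0 CPM in progenitors, 58.7 in mesenchyme, 36.6 in hepatobiliary cells, 10.1 in hormone-stage cells and 9.45 in Neurog3-positive cells (3 UMIs). The only neighbours to differ beyond counting error were hepatobiliary over hormone-stage cells in KO (ratio 3.62, interval 1.68 to 8.11). Progenitors carried Notch3 as well as mesenchyme: the ratio of mesenchyme to progenitors was 1.65 in WT (interval 0.993 to 2.71) and 0.996 in KO (interval 0.597 to 1.65). The mesenchyme class also contained 9 endothelium-like cells, and the endothelium markers summed to 182 CPM in WT and 208 in KO there, with 7 of 7 detected, against 44.0 and 52.6 CPM in progenitors. Without those cells the log2 ratio of Notch3 between mesenchyme and progenitors was 0.60 in WT and 0.03 in KO, against 0.56 and -0.01 with them. The 5 mural (pericyte) markers summed to 56.9 CPM in WT and 41.7 in KO mesenchyme, with 3 of 5 detected in each (Kcnj8 and Abcc9 at 0 in WT, Cspg4 and Acta2 in KO). Epithelial marker RNA was higher there: progenitor markers summed to 1149 CPM in WT (10 of 10 detected) and 816.5 in KO (9 of 10, Ptf1a at 0), and hepatobiliary markers to 970 and 1415 CPM (9 of 9 in each), beside mesenchyme markers of 1637 CPM in WT and 1743 in KO. The part of these cell types in the Hes1 and Notch levels of the mesenchyme class was not tested.

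The ligands and Hey1 were sparse. Jag1, a ligand that pancreatic progenitors are known to express, had 33 UMIs in WT progenitors (22.7 CPM, interval 15.6 to 31.8) and 11 in WT mesenchyme (15.7 CPM), but 0 UMIs in the Neurog3-positive and hormone-stage classes of WT. In KO it had 4 UMIs in progenitors (6.38 CPM), 4 in mesenchyme (7.58 CPM), 1 in hormone-stage cells and 0 in Neurog3-positive cells. WT hormone-stage cells were below WT progenitors in Jag1, with an upper end of 0.248 for the interval of the ratio. The difference was 5.25-fold if 3 counts in the class are taken as the limit that 0 allows. For Neurog3-positive cells the limit was 23.1 CPM in WT and 9.45 in KO, at or above the progenitor level, so a lower level was not detectable at this depth.

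Dll1, the Delta ligand that Neurog3 is known to activate in endocrine precursors, had 57 UMIs over all kept cells, too few to order the classes. It was at 9.61 CPM in progenitors, 7.68 in Neurog3-positive cells (1 UMI) and 4.32 in hormone-stage cells in WT, and at 3.19, 18.9 (6 UMIs) and 9.27 CPM in KO. The highest level was thus in Neurog3-positive cells in KO and in progenitors in WT, and no 2 neighbours in either order differed beyond counting error. In KO the Neurog3-positive level was 5.93 times that of progenitors, with an interval of 1.06 to 60.1. In the 14 WT progenitors with a Neurog3 UMI, Dll1 had 5 UMIs (24.6 CPM, interval 7.996 to 57.5), against 9 UMIs (7.18 CPM) in the other 95, and in KO it had 2 UMIs in 7 such cells and 0 in the other 30. Hey1, another Notch-responsive repressor, was at 15.1 CPM in WT progenitors (22 UMIs), 7.11 in mesenchyme and 2.88 in hormone-stage cells, and at 7.97 CPM in KO progenitors (5 UMIs), with 0 UMIs in KO mesenchyme.

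Counts past a fixed fold place these ratios against all genes. A gene was counted where the log2 ratio of CPM plus 10 was at least 1 in both libraries and the gene had at least 50 UMIs in the 2 classes together, a filter that a gene low in one class passes only through the other. From progenitors to Neurog3-positive cells 2 of the 9 genes passed the filter: Hes6 was counted as higher, as were 3.53% of the 3425 genes tested, and Hes1 as lower, as were 6.54%. From Neurog3-positive to hormone-stage cells Mfng and Hes6 passed it and both were counted as lower, against 1.33% of 2861 genes, and 0 as higher, against 2.34%. Between mesenchyme and progenitors 4 of the 9 passed it (Notch1, Notch3, Hes1 and Hes6) and 0 were counted as higher or lower, against 1.18% and 0.826% of 4237 genes. Mfng had 25 and 10 UMIs in WT and did not pass the filter for the first comparison. Where the Neurog3-positive class was instead set by at least 2 Neurog3 UMIs (13 WT and 23 KO cells), the directions held but the following calls ended: the log2 ratio to progenitors was 0.74 in WT and 2.24 in KO for Hes6, and -1.82 and -0.91 for Hes1, and the log2 ratio of hormone-stage cells to the class was -0.81 and -1.21 for Mfng. The Hes6 call in that comparison ended too, with log2 ratios of -1.27 and -2.65, because Hes6 no longer passed the minimum of UMIs. At resolution 0.3 no cluster was led by Neurog3-positive markers, and the endocrine-like cells were clustered again alone to divide them. In the Neurog3-positive cells of that division Hes6 had a log2 ratio of 0.46 to progenitors in WT.

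**Figure D2:**
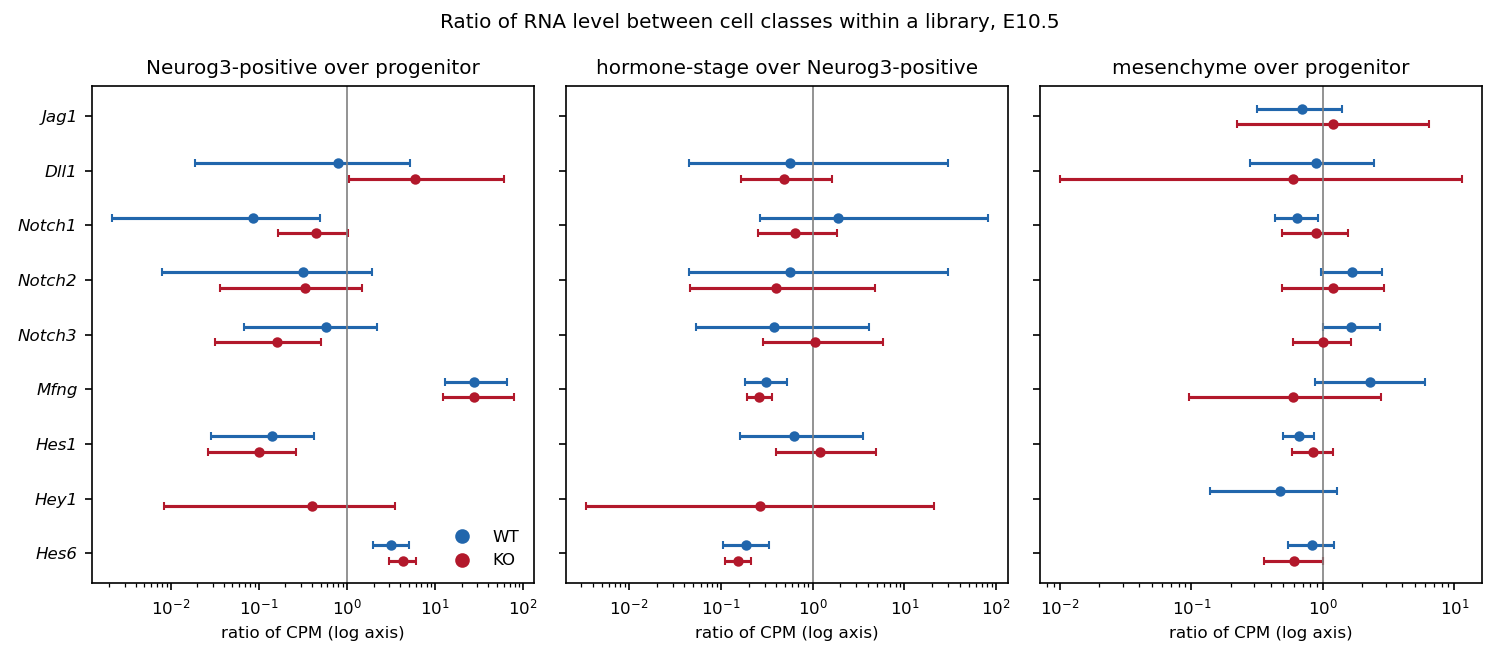
Ratio of RNA level between classes within WT (blue) and KO (red), on a log axis, with exact 95% intervals of counting error; genes with 0 UMIs on either side are not drawn. Hes1 lies at 0.141 and 0.1001 and Hes6 at 3.20 and 4.28 for Neurog3-positive over progenitor, and Mfng at 0.307 and 0.261 for hormone-stage over Neurog3-positive.

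Few of the other 45 genes of the pathway list passed the filter. From progenitors to Neurog3-positive cells 9 passed the filter. Only Dlk1, an atypical ligand, was counted as lower, against 6.54% of 3425 genes, and 0 as higher, against 3.53%. The level of Dlk1 was 1097 CPM in progenitors and 277 in Neurog3-positive cells in WT, and 1363 and 123 in KO. The medians of those 9 log2 ratios were 0.32 in WT and 0.03 in KO, and the highest was that of the co-activator gene Maml3, at 0.64 and 0.75. Dll3, a Delta-type ligand that acts within the cell, did not pass the filter in WT. It had 2 UMIs in WT and 3 in KO progenitors, 31 and 56 in Neurog3-positive cells (238 and 176 CPM) and 62 and 138 in hormone-stage cells (89.3 and 116 CPM). From Neurog3-positive to hormone-stage cells 0 of 6 were counted in either direction, against 2.34% of 2861 genes as higher and 1.33% as lower. In mesenchyme over progenitors 1 of 15 was counted as higher, against 1.18% of 4237 genes, and 0 as lower, against 0.826%. The gene was that of the co-repressor Tle4, at 154 against 25.4 CPM in WT and 117 against 23.9 in KO. The target gene Nrarp had 27 UMIs in WT progenitors (18.5 CPM) and 4 in KO progenitors (6.38 CPM), and Hes5, a main target in neural tissue, had 0 UMIs in all 5 named classes of both libraries.

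Likeness of pattern was measured by Pearson's r of log2(CPM + 10) over the 14 combinations of class and library, the mixed and unnamed clusters included, among 6006 genes with at least 200 UMIs and outside the pathway list. The 3 genes most like Hes1 were Ccnd1 (r = 0.965), Phgdh (0.957) and Anp32a (0.955). For Hes6 they were Neurog3 (0.974), Phax (0.913) and Gadd45a (0.884), of which Neurog3 is itself a marker of the class. For Notch3 they were Zfp266 (0.932), Flna (0.930) and Brca2 (0.921), and for Dll1, with its few UMIs, Mettl26 (0.767), Cib1 (0.733) and Ube2v2 (0.733). The 14 points share 2 libraries and differ in depth, so these are descriptions.

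Between the genotypes, KO progenitors differed from WT progenitors in Notch1, Notch3, Jag1 and Hes1 by more than counting error. Notch1 was lower, at 49.4 against 89.3 CPM (ratio 0.554, interval 0.362 to 0.824), and Notch3 was higher, at 59.0 against 26.8 CPM (ratio 2.20, interval 1.37 to 3.55). Jag1 was lower, at 6.38 against 22.7 CPM (ratio 0.281, interval 0.072 to 0.791), and Hes1 lower by a smaller factor (ratio 0.771, interval 0.590 to 0.998). For Notch2 (ratio 0.796, interval 0.376 to 1.57), Hes6 (1.25, interval 0.865 to 1.79), Mfng (1.39, interval 0.416 to 4.23), Hey1 (0.528, interval 0.156 to 1.43) and Dll1 (0.332, interval 0.037 to 1.44) the interval included 1.

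The WT progenitors came from 2 clusters of 57 and 52 cells, and the KO progenitors almost wholly from the first, with 35 and 2 cells. Within the first cluster alone the ratios were 0.485 for Notch1 (interval 0.312 to 0.736), 1.95 for Notch3 (interval 1.16 to 3.33), 0.237 for Jag1 (interval 0.060 to 0.691) and 0.771 for Hes1 (interval 0.578 to 1.02), and Hes6 was at 1.84 (interval 1.18 to 2.88). Scaling by the median of ratios would lower every KO over WT log2 ratio in progenitors by 0.20. The hormone-stage markers summed to 405 CPM in WT progenitors and 1578 in KO progenitors, with 9 of 11 and 8 of 11 detected (Ins1 and Ins2 at 0 in both, Iapp in KO). The hepatobiliary markers summed to 764 CPM in WT progenitors (9 of 9 detected) and 2100 in KO progenitors (8 of 9, Sox17 at 0), and the Neurog3-positive markers to 698 and 1170 CPM (6 of 8 in each, Neurod4 and Pax4 at 0). The markers of the progenitor class itself summed to 3182 CPM in WT (10 of 10) and 1825 in KO (8 of 10, Ptf1a and Cpa1 at 0). In KO the sum of the hepatobiliary list was thus above that of the progenitor list. The hepatobiliary list includes Spp1 and Onecut2, which were among the top genes of the first progenitor cluster, so its sum is not particular to hepatobiliary cells. The part of these cell types in the genotype ratios was not tested. By the fold rule 0 of the 4 genes that passed the filter were counted, against 2.89% of 5805 genes in either direction. By the interval, 4 of 9 left out 1, against 21.6% of 10313 genes with at least 10 UMIs, a share of all genes that also differed between these 2 libraries by more than counting error.

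In the other classes the genotype ratios were closer to 1 or rested on few UMIs. In Neurog3-positive cells Hes6 was higher in KO, at 334 against 199.8 CPM (ratio 1.67, interval 1.08 to 2.68), and Neurog3 itself was at 513.5 against 338 CPM. Mfng stood at 268 against 192 CPM there (ratio 1.39, interval 0.884 to 2.27). The fold rule counted 0 of the 2 genes tested, against 3.45% of 1651 genes, and the interval left out 1 for 1 of 2, against 7.83% of 6504. In hormone-stage cells Mfng had a ratio of 1.19 (interval 0.806 to 1.77) and Hes6 of 1.37 (interval 0.855 to 2.27), with 0 of 2 counted by fold, against 0.572% of 5766 genes, and 0 of 6 by interval, against 12.3% of 10669. In mesenchyme Hes1 was level, at 106 against 107 CPM (ratio 0.995, interval 0.691 to 1.43), and Notch3 had a ratio of 1.33 (interval 0.783 to 2.27), with 0 of 4 counted by fold, against 1.03% of 4475 genes, and 0 of 7 by interval, against 11.0% of 9807. In hepatobiliary cells Notch1 had a ratio of 1.26 (interval 0.665 to 2.54) and Notch3 of 0.619 (interval 0.288 to 1.39).

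Over all kept cells together, which mixes these levels with the makeup of each library, Mfng was at 2.08 times the WT level in KO (interval 1.66 to 2.63), Hes6 at 1.35 times, Hes1 at 0.690 times and Jag1 at 0.223 times. The KO library held 42 Neurog3-positive and 97 hormone-stage cells of 369, and the WT library 20 and 52 of 451. Within each of the 4 classes described, the interval of the Mfng ratio included 1, and so did that of Hes1 outside progenitors. By fold 0 of the 8 genes that passed the filter were counted, against 0.627% of 10367 genes.

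**Figure D3:**
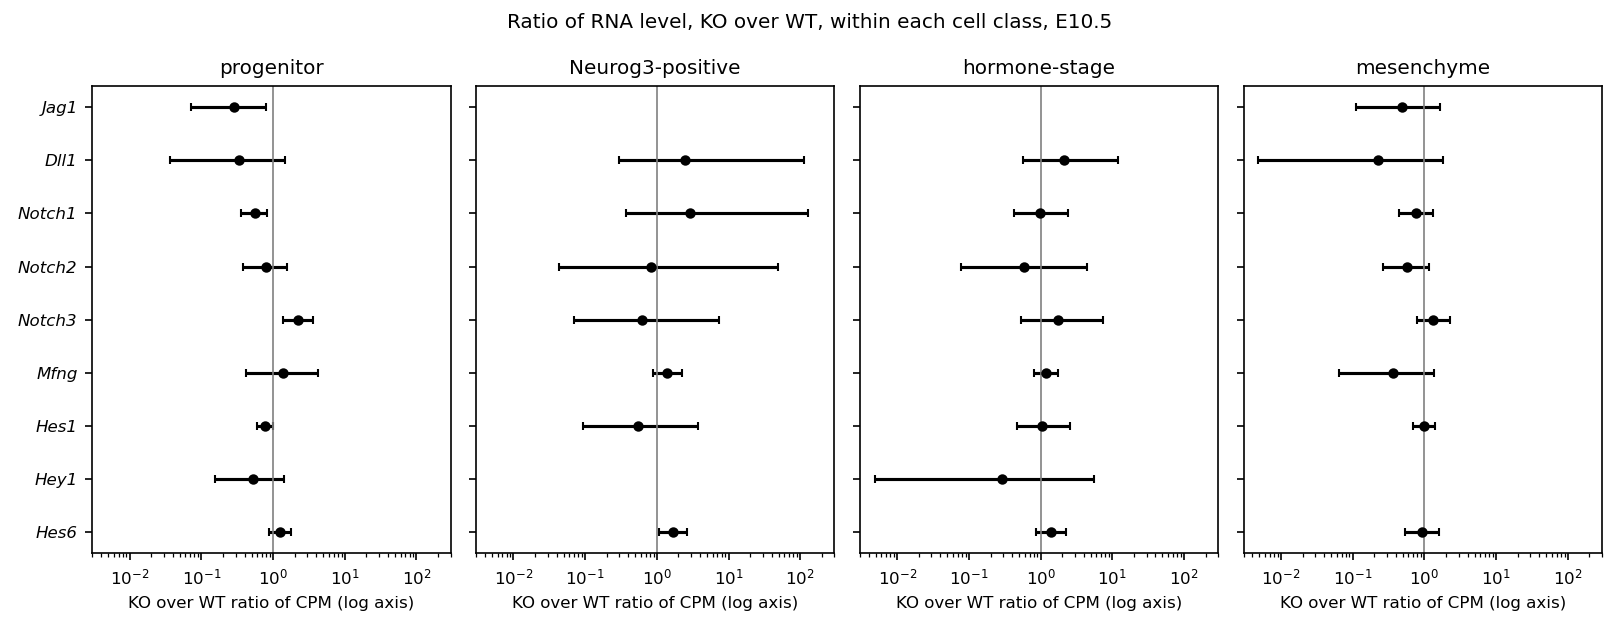
KO over WT ratio of RNA level at E10.5 within 4 classes, on a log axis, with exact 95% intervals of counting error for 1 library per genotype; genes with 0 UMIs in either library are not drawn. In progenitors Notch1 lies at 0.554, Jag1 at 0.281 and Notch3 at 2.20, while most other intervals include 1.

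The ATAC matrices gave, for each nucleus, a gene-level signal that sums to 10000 over the listed genes. Signals were averaged over nuclei, 838 WT and 700 KO at E10.5, and 2314 WT and 602 KO at E13.5. An endocrine-like cluster, led by Neurog3-positive and hormone-stage marker genes, held 63 WT and 67 KO nuclei at E10.5, and 361 and 48 at E13.5. Neurog3 signal was 3.44 and 3.11 in them at E10.5 against 1.46 and 1.39 in the other nuclei. At E13.5 it was 3.65 against 1.87 in WT, but 1.30 against 1.31 in KO. The cluster was named from markers scored over its WT and KO nuclei together. The other markers were not scored in the 48 KO nuclei alone, so their name is less sure. At E13.5 a red-cell-like cluster held 139 WT and 270 KO nuclei. The E13.5 barcode prefixes name different months for WT and KO, and that difference and the genotype cannot be told apart. Fragments per nucleus are not known, so no counting interval can be given for a mean.

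Hes1 had less accessibility in endocrine-like nuclei, the direction its RNA also had. At E10.5 its mean signal was 3.54 in WT and 3.87 in KO endocrine-like nuclei, against 6.55 and 6.75 in the other nuclei. At E13.5 it was 3.48 and 2.70, against 7.42 and 7.43 in other nuclei without the red-cell-like ones, and 1.59 and 1.41 in red-cell-like nuclei. In all 4 libraries the endocrine-like mean was thus below that of the remaining nuclei, the red-cell-like ones aside. The share of nuclei above 0 was 81.0% (interval 69.1% to 89.8%) against 83.2% in WT at E10.5, and at E13.5 it was 77.0% against 75.2% in WT and 75.0% against 87.0% in KO, so the lower mean was not matched by a lower share in every library.

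Notch2 was also lower, at 1.499 and 1.47 in endocrine-like nuclei of WT and KO at E10.5 against 2.45 and 2.54 in the others, and at 2.07 and 1.84 at E13.5 against 3.36 and 2.82. Notch3 was a little lower in endocrine-like nuclei at E10.5, at 1.07 and 1.06 against 1.33 and 1.33. The share of nuclei above 0 went the other way for both at E10.5: for Notch2 it was 85.7% against 84.0% in WT and 88.1% against 85.5% in KO, and for Notch3 74.6% against 67.0% and 77.6% against 73.0%. Notch1 was nearly level at E10.5, at 2.26 and 2.13 against 2.38 and 2.24, although its RNA was low in the endocrine classes. At E13.5 the mean of Notch1 was lower in endocrine-like than in other nuclei, the red-cell-like ones aside. It was 2.51 against 3.03 in WT and 1.91 against 2.79 in KO (log2 ratios -0.27 and -0.54). By the share of nuclei above 0 Notch1 and Notch2 went the other way at E13.5 too. For Notch1 it was 84.2% against 71.4% in WT and 83.3% against 82.4% in KO. For Notch2 it was 83.9% against 76.9% in WT and 85.4% against 82.75% in KO. The mean of Jag1 at E13.5 was lower in endocrine-like nuclei of WT (0.889 against 2.05) and less so in KO (1.10 against 1.30). Its share of nuclei above 0 was lower there in WT (53.5% against 58.65%) but higher in KO (75.0% against 66.9%).

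Mfng and Hes6 leaned the other way. Mfng was at 2.50 in WT endocrine-like nuclei at E10.5 against 1.57 in the others, and at 1.82 against 1.58 in KO. At E13.5 it was at 2.79 against 1.88 in WT and 1.89 against 1.72 in KO. Hes6 was at 3.86 against 3.21 in WT and 4.60 against 2.96 in KO at E10.5, and at 4.16 against 3.70 and 4.11 against 3.03 at E13.5. Both genes had a higher mean in endocrine-like nuclei in all 4 libraries, with ratios on the log2 scale from 0.13 to 0.67 for Mfng and 0.17 to 0.63 for Hes6 once red-cell-like nuclei were left out. Mfng in KO (0.21 at E10.5 and 0.13 at E13.5) and Hes6 in WT (0.27 and 0.17) stayed below 0.3. The share of nuclei above 0 was higher too, except for Mfng in KO at E13.5, at 81.25% against 82.75%. A higher share was not particular to Mfng and Hes6. In WT at E13.5 it was also seen for Notch1 (84.2% against 71.4%), Notch2 (83.9% against 76.9%) and Notch3 (67.9% against 53.6%). Hes1 was nearly level and Jag1 was lower (53.5% against 58.65%). Endocrine-like nuclei there had a median of 4523 genes above 0, against 3230 in the others, and the part of depth in the shares was not tested.

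A gene was counted here where its log2 ratio was at least 0.3 in the same direction in both libraries and it was above 0 in at least 10% of nuclei. At E10.5, 3 of 7 genes were counted as lower in endocrine-like nuclei (Hes1, Notch2 and Notch3), against 13.4% of 8214 genes, and 0 as higher, against 9.44%. At E13.5, against all other nuclei, Hes1 was lower, against 8.42% of 8196 genes, and Mfng higher, against 9.41%. With the red-cell-like nuclei left out, Hes1 and Notch2 were lower, against 8.10% of 8197 genes, and 0 were higher, against 6.97%.

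**Figure D4:**
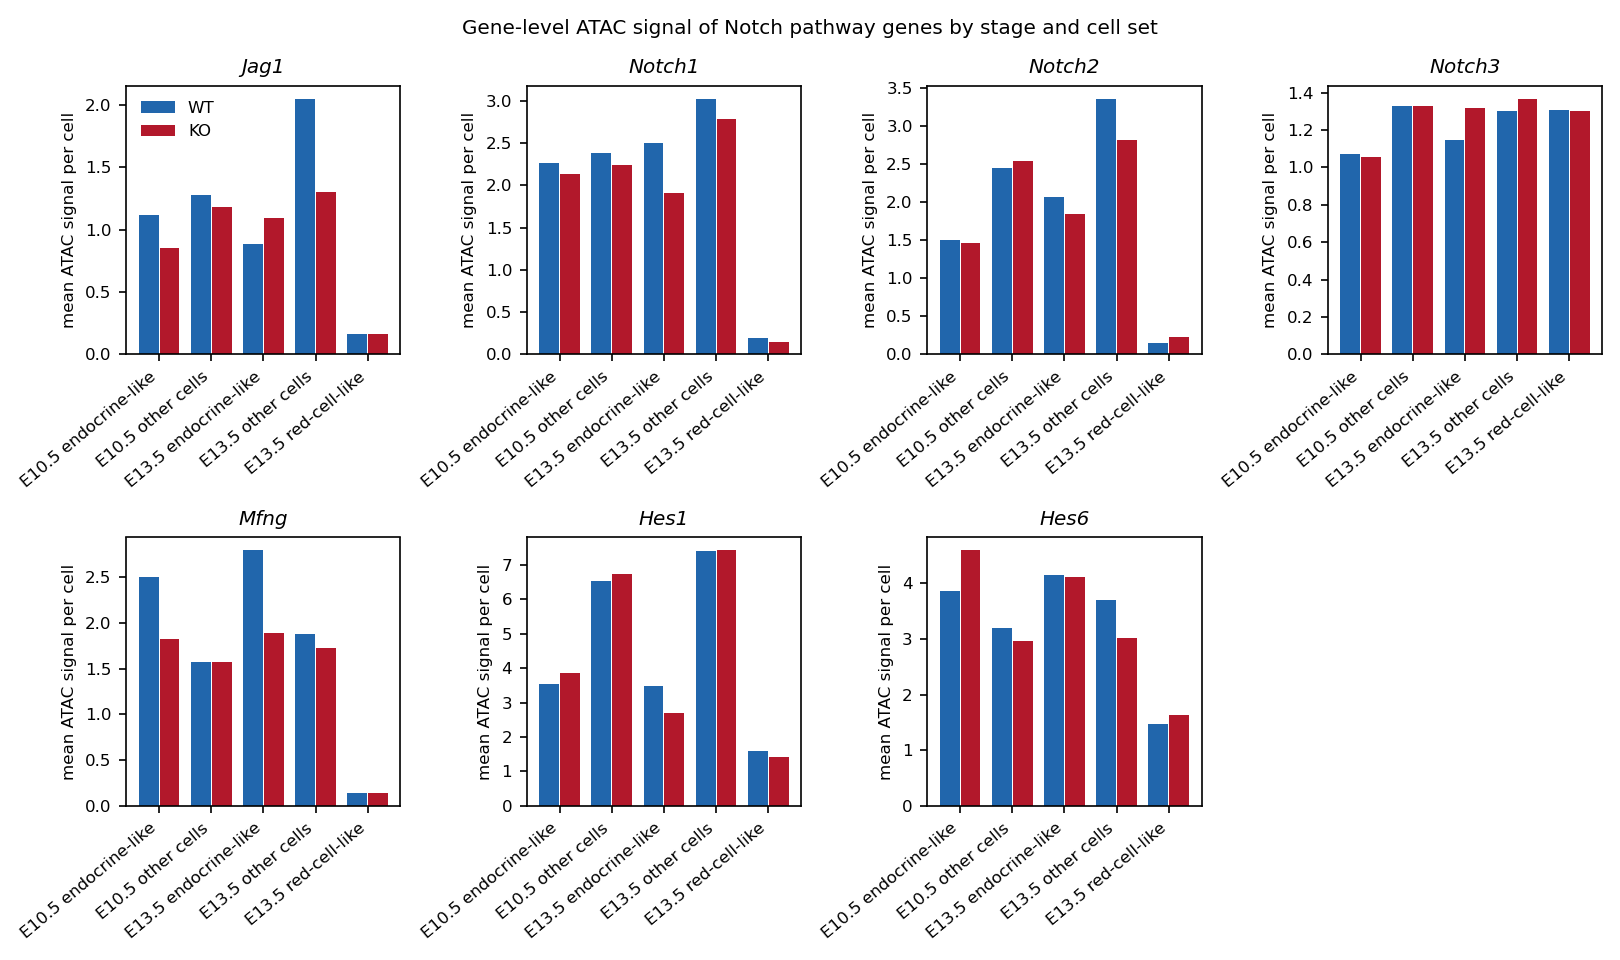
Mean gene-level ATAC signal per nucleus of the 7 listed genes (linear axes from 0, one scale per gene) in endocrine-like, other and, at E13.5, red-cell-like nuclei, WT in blue and KO in red; each bar is 1 library and has no error bar, since fragments per nucleus are not known. Hes1 lies between 2.70 and 3.87 in endocrine-like nuclei and between 6.55 and 7.43 in the others, and 6 of the 7 genes are lowest in red-cell-like nuclei.

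Between genotypes at E10.5 the ATAC signal of all 7 genes was close. Hes1 was at 6.32 in WT and 6.47 in KO, Hes6 at 3.25 and 3.12, Notch1 at 2.37 and 2.23, Notch2 at 2.38 and 2.43, Notch3 at 1.31 and 1.30, Mfng at 1.64 and 1.60, and Jag1 at 1.27 and 1.15. The log2 ratios lay between -0.14 (Jag1) and 0.03 (Hes1), and 0 of 7 reached 0.3, against 4.87% of 8219 genes in either direction. The RNA differences in Notch1, Notch3 and Jag1 in progenitors had no counterpart past 0.3 in the signal over all nuclei, which mixes cell types.

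At E13.5, over all nuclei, 6 of the 7 genes were lower in KO by at least 0.3 on the log2 scale, with Hes1 at 6.45 in WT and 4.35 in KO and Notch1 at 2.77 and 1.53. Of all 8208 genes 49.3% were past 0.3 in either direction, with a median log2 ratio of -0.03. Red-cell-like nuclei were 139 of 2314 in WT and 270 of 602 in KO. Without them Hes1 was at 6.76 and 6.75, Notch1 at 2.94 and 2.66, Notch2 at 3.14 and 2.68, Hes6 at 3.78 and 3.18, Mfng at 2.03 and 1.75, and Notch3 at 1.28 and 1.36. Only Jag1 then passed 0.3, at 1.86 in WT and 1.27 in KO (log2 ratio -0.55), against 16.9% of 8224 genes in either direction. The share of these nuclei above 0 for Jag1 was higher in KO. It was 57.8% in WT (interval 55.7% to 59.9%) and 68.1% in KO (interval 62.8% to 73.1%). Their median of genes above 0 was 3510 in WT and 5422 in KO, and a cluster with a median of 1830 held 782 WT and 50 KO nuclei. The part of depth and makeup in the Jag1 ratio was not tested. In endocrine-like nuclei alone, on 48 KO nuclei, the mean of Jag1 was higher in KO, at 0.889 in WT and 1.10 in KO (log2 ratio 0.30). Mfng (-0.57), Notch1 (-0.39) and Hes1 (-0.37) were lower in KO there.

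From E10.5 to E13.5 the 2 matrices were scaled separately, so stage ratios are descriptions. The shares of all genes given beside them count both directions. In WT, Jag1 (1.27 to 1.76) and Notch2 (2.38 to 2.96) were past 0.3 on the log2 scale, against 23.9% of 8213 genes, and Hes1 was level at 6.32 and 6.45. By the share of nuclei above 0 both went the other way, with log2 ratios of -0.25 for Jag1 and -0.18 for Notch2, and in endocrine-like nuclei Jag1 was at -0.33. With the red-cell-like nuclei left out in WT, 4 of 7 were past 0.3: Jag1 (0.55), Notch2 (0.40), Notch1 (0.31) and Mfng (0.31), against 22.4% of 8213 genes. In KO 6 of 7 were past it, all lower at E13.5, against 57.0% of 8220 genes past it in either direction. With the red-cell-like nuclei left out, 0 of 7 were past it in KO, against 20.9% of 8226 genes, with Hes1 at 6.47 and 6.75 and Notch1 at 2.23 and 2.66.

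Of the other pathway genes 25 were listed in the ATAC matrices. At E10.5, 4 of the 25 were counted as higher in endocrine-like nuclei in both libraries, against 9.44% of 8214 genes, and they included Dll3, Mib1 and Ncstn. Counted as lower were 3 (Rbpjl, Tle4 and Nrarp), against 13.4% of all genes, a share close to theirs. Dll3 stood at 1.12 and 0.956 in WT and KO endocrine-like nuclei against 0.660 and 0.644 in the others, in the same direction as its RNA. At E13.5, the red-cell-like nuclei left out, its log2 ratio of endocrine-like to other nuclei was 0.42 in WT but -0.47 in KO. Of the 25 genes, 0 were then counted as higher in both libraries, against 6.97% of 8197 genes, and 2 as lower, against 8.10%.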

How the data were processed

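Single-cell RNA (10x 3′ v3) and single-nucleus ATAC libraries came from 6 pools, 1 per group. The RNA matrix as deposited is one of raw counts of UMIs, per the file headers. The ATAC matrices as deposited hold a gene-level signal that sums to 10000 per nucleus. The build was mm10 per the submitters' processing notes; for the aligner, the cell filter and the tool behind the signal, no name was found in the labels or headers. Samples were assigned by barcode prefix, and 0 columns of other samples were used.

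RNA cells with at least 1000 genes went into Leiden clustering in scanpy 1.11.5 (leidenalg 0.10.2, resolution 0.5, 2000 variable genes, 30 components, 15 neighbours), leaving out the Notch pathway list, Ptf1a and acinar genes, and named from marker lists. Scrublet marked 4 WT and 7 KO doublets, which were kept. UMIs were summed per class and library, with exact Poisson, Clopper-Pearson and conditional intervals (scipy 1.17.1); folds used log2(CPM + 10) and at least 50 UMIs. No test was possible with 1 library per group. ATAC nuclei were clustered per stage at resolution 0.3 (0.5 at E10.5, where 0.3 gave no endocrine-like cluster), and genes above 0 in under 10% of nuclei were left out. All 9 genes are named, with the extreme genes of the other pathway list and the 3 genes most alike; Dll3, Nrarp and Hes5 were named after their values were seen. The genes and lists were chosen with earlier results of these data known. Scripts were tested on simulated data. A result for 1 other pathway gene is not reported here.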

Additional observations from a re-analysis of the deposited data

How the results depend on the processing

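No paired analysis was possible because each group had 1 library. Of 1038 alternative values, 190 were counts of the 9 genes past the fold, of which 33 moved by over 1.5 times, and 848 were single log2 ratios, of which 26 reversed and 138 moved. In RNA, Neurog3-positive over progenitor, the count of higher genes was 2 with no minimum of UMIs and 0 when the class was defined by at least 2 Neurog3 UMIs. The count of lower genes was 3 at resolution 0.3, where the endocrine-like cells were clustered again alone to give the class, or with a minimum of 500 genes, and 0 at resolution 1.2 and under both redefinitions of the Neurog3-positive class. Dividing endocrine cells by Neurog3 against hormone UMIs left 2 WT and 1 KO cells, and Hes1 in KO then had a log2 ratio of 0.517. For hormone-stage over Neurog3-positive cells, the count of lower genes was 1 at resolutions 0.3, 0.8 and 1.2, with 500 genes, under that division and with the Pyy-led cluster alone (added after seeing the data), and 0 with at least 2 Neurog3 UMIs. With 500 genes 1 was lower in mesenchyme. For KO over WT the count was 1 in Neurog3-positive cells with at least 2 Neurog3 UMIs, 1 in progenitors at resolution 1.2 or with a pseudocount of 1 CPM, and 2 over all cells with that pseudocount. The cause was not tested, except that fewer of the 9 genes passed the UMI minimum at resolution 1.2.

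In ATAC, KO over WT at E10.5 was past 0.3 for 2 genes in endocrine-like nuclei. At E13.5 it was so for 1 without red-cell-like nuclei or in the largest cluster, and for 3 by share of nuclei above 0, where Hes6 was at 0.103; Jag1 was at 0.3 in endocrine-like nuclei. By share, endocrine-like over other gave Notch2 0.029 and Notch3 0.156 in WT and 0.043 and 0.089 in KO at E10.5, with 0 lower, and at E13.5 Notch2 0.216 and Hes1 0.104 in WT and Hes1 0.315 in KO, with 2 higher and 0 lower. Without red-cell-like nuclei 0 were higher and 2 lower at E13.5, with Jag1 -0.250 and Notch1 -0.542 in KO; against deep clusters alone (added later) 0 were higher and 3 lower, with Jag1 -0.257 and Notch1 -0.572. For E13.5 over E10.5 in WT, share gave 0 genes, with Jag1 -0.246 and Notch2 -0.184, leaving out red-cell-like nuclei gave 4, and endocrine-like nuclei gave Jag1 -0.329. In KO, leaving out red-cell-like nuclei gave 0 genes, with Jag1 0.144, Notch1 0.253, Notch2 0.138, Mfng 0.127, Hes1 0.059 and Hes6 0.029, and endocrine-like nuclei gave Jag1 0.363, Notch2 0.330 and Mfng 0.050. Depth limits Jag1, Dll1, Hey1, Notch2 and Notch3, whose sums in each class and library were under 50 UMIs.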
